A study of Rattus norvegicus with 6 samples.

Results

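The cluster of Mir532, Mir188, Mir362, Mir501 and Mir500 is a group of microRNA (miRNA) hairpins that lie close together inside Clcn5, a gene of the X chromosome that encodes an endosomal chloride/proton exchanger. Its members were followed in the terminal hindgut of fetal rats with and without an anorectal malformation (ARM). All miRNA spots on the arrays whose name had the stem miR-532, miR-188, miR-362, miR-500 or miR-501 were taken, from either arm of the hairpin, which gave 10 of the 758 miRNAs on the array. miR-660, whose stem was also searched for, is not analysed here. A miRNA was kept when a probe of it was well above background in at least 0.5 of its spots on 3 or more of the 6 arrays. By that rule 5 of the 10 cluster miRNAs passed, among 230 that passed on the whole array. Within the cluster the members were selected on detection, counted over all 6 arrays whatever their group. The cluster itself was chosen with earlier results of these data known.

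A miRNA hairpin is cut into a short duplex, and either strand, called the 5p or the 3p arm, can be loaded into the silencing complex. The loaded arm recognises messenger RNAs mainly through its seed, bases 2 to 8 counted from the 5′ end. Hairpins that sit close together on the same strand are often cut from the same primary transcript. Members of this cluster have mostly been studied in tumours and in differentiating muscle and fat cells.

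The malformation was brought about with ethylenethiourea (ETU), a breakdown product of fungicides that blocks thyroid hormone synthesis and is teratogenic in rats. Per the labels, 4 pregnant Sprague Dawley dams had 125 mg/kg ETU as a 1% solution by gavage on gestational day 10, and control dams had distilled water. At embryonic day 20 each fetus was scored for ARM under a microscope, and total RNA came from 1 cm of its terminal hindgut. The ARM group held 3 samples with the ETU-induced malformation, and the control group held 3 samples of healthy fetuses. Neither the dam of a sample nor any pooling of fetuses is stated, and the spread behind every p-value here may therefore be technical. The labels sort the fetuses by ARM and do not say whether the healthy ones all came from dams given water. If they did, being exposed to ETU and being malformed cannot be told apart in this design. Each sample was hybridised to 1 one-colour (Cy3) Agilent rat miRNA array.

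In RefSeq's rat assembly GRCr8, Clcn5 spans chrX:17857260-18011844, and 5 cluster hairpins lie inside that span on the same plus strand as the gene. Mir532 (chrX:17919185-17919263) comes first, and Mir188 (chrX:17919585-17919664) starts 0.40 kb after it. Mir362 (chrX:17926485-17926549), Mir501 (chrX:17927189-17927272) and Mir500 (chrX:17930647-17930726) follow at 7.30, 8.00 and 11.5 kb from the start of Mir532. RefSeq also places Mir3560 on the opposite strand over Mir501. Of the Clcn5 start sites listed, 1 lies 61.9 kb upstream of Mir532 and another lies downstream of the whole cluster. Whether the hairpins are intronic is not given by the annotation used here.

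**Figure D1:**
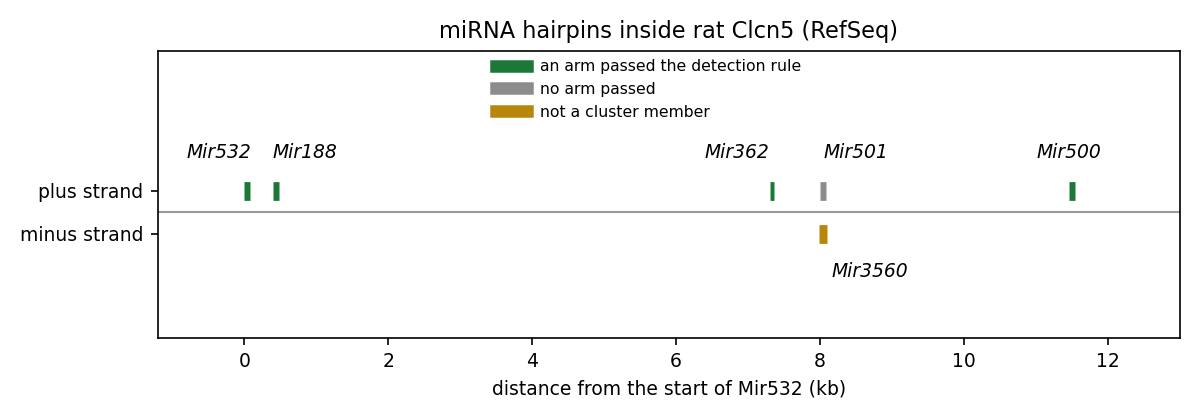
Map of the miRNA hairpins inside rat Clcn5, drawn to scale as distance in kb from the start of Mir532, with the plus strand above and the minus strand below. Of the 5 cluster hairpins, 4 gave an arm that passed the detection rule, and Mir501 gave none.

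RefSeq gives mature sequences for 9 of the 10 cluster miRNAs. Those of the 5 that passed are shown first, because every result below is about them, with the seed in capitals.
miR-532-5p: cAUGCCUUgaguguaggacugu
miR-532-3p: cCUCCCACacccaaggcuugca
miR-188-5p: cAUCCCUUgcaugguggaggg
miR-362-3p: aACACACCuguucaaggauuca
miR-500-3p: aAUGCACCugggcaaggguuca
The 5 seeds differ from one another. Other miRNAs on the array share 3 of them: miR-501-3p of the same cluster, miR-329-3p of chromosome 6 and miR-511-5p of chromosome 17.
miR-501-3p: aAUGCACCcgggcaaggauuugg
miR-329-3p: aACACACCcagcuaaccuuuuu
miR-511-5p: cAUGCCUUuugcucugcacuc
miR-500-3p and miR-501-3p are identical at 18 of the first 22 bases. With positions counted from the 5′ end and the base of miR-500-3p first, they differ by U9C, G18A, C21U and A22G.

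The hairpins of Mir532, from which both arms passed, and of Mir500, from which 1 arm passed, are shown with their mature arms in capitals.
Mir532: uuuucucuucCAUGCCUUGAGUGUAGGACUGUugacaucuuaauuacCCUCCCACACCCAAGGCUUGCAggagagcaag
Mir500: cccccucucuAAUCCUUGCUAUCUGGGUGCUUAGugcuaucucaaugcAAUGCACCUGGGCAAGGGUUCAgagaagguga

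Across the arrays, 207 to 246 miRNAs were detected, and no miRNA spot was saturated. Unscaled brightness, taken as the 75th percentile over probes that every array detected, was 203.4 to 221 in ARM and 225 to 290 in control. Precision is limited by having 3 arrays a group. Markers of the labelled tissue were present, with 10 of 16 miRNAs of an intestinal epithelium list and 2 of 4 of a smooth muscle list passing the detection rule. Over the whole array 230 of 758 passed. Lists of other cell types passed too, from 1 of 5 for neural to 3 of 4 for mesenchyme, so these counts do not identify the tissue. Over the 230 miRNAs, the profile of control replicate 3 had a correlation of 0.960 with ARM replicate 1, above its 0.941 and 0.948 with control replicates 1 and 2. These are descriptions across miRNAs of the same arrays, which are not independent.

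Detection is a description, since it chose the members. miR-532-5p, miR-188-5p and miR-500-3p were detected on all 6 arrays, miR-362-3p on 5 and miR-532-3p on 4. Just inside the rule, the brightest probe of miR-532-3p was well above background in 25.0%, 28.6% and 100% of its unflagged spots on ARM replicates 1 to 3, and in 100%, 100% and 87.5% on control replicates 1 to 3. Just outside, the brightest probe of miR-362-5p was well above background in all spots of control replicates 1 and 2 and in none on the other 4 arrays. miR-188-3p, miR-500-5p, miR-501-3p and miR-501-5p were detected on no array. Mir532 was the only hairpin of the 5 with both arms past the rule, and miR-501-3p, so close in sequence to miR-500-3p, was not detected.

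**Figure D2:**
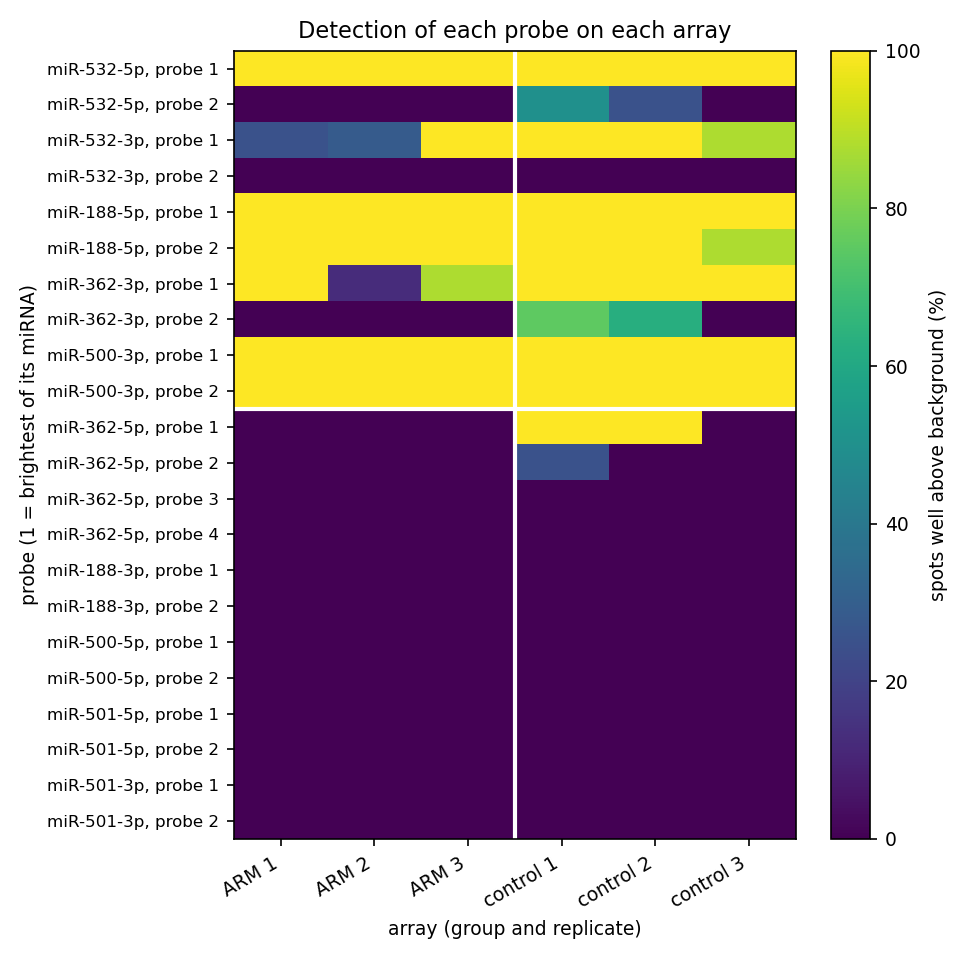
Share of the unflagged spots of a probe that were well above background, in percent, for the 22 probes of the 10 cluster miRNAs (rows) on the 6 arrays (columns). The white lines divide miRNAs that passed the detection rule from those that did not, and ARM from control. Both probes were detected on all arrays for miR-188-5p and miR-500-3p, and 1 of 2 for miR-532-5p.

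All 5 cluster miRNAs that passed had a lower mean level in ARM than in control. miR-532-3p fell by 0.68 on the log2 scale and was the only one past the threshold, a call that most other settings did not keep. Levels are the log2 of the scaled probe intensity, averaged over the probes of a miRNA. ARM was compared with control by limma over all 230 miRNAs, and Benjamini-Hochberg adjusted p-values below 0.05 were called. By this test 1 of 5 members was lower, beside 11.3% of all tested miRNAs, and 0 of 5 were higher, beside 2.17%. In either direction the call was made for 1 of 5 members and for 13.5% of all tested miRNAs. In pieces of whole tissue, fewer cells that carry a miRNA and less of it per cell cannot be told apart. Values below are listed in the order of replicates 1, 2 and 3.

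miR-532-3p, which has been studied as a growth-restraining miRNA in human tumour cells, had ARM levels of 2.96, 3.03 and 2.71. Its control levels were 3.76, 3.51 and 3.47. All of its ARM values lay below all of its control values, with a gap of 0.44 between the groups. They averaged 2.90 ± 0.17 and 3.58 ± 0.16 (SD, n = 3 each) and differed by -0.68 (SE 0.18, limma adjusted p = 0.0487). That is 1.60-fold more in control, with a 95% interval of 1.19 to 2.15. Only the brighter of its 2 probes was ever detected, on 1 of 3 ARM and 3 of 3 control arrays, so the ARM level includes signal not well above background. Before scaling that probe read 16.2, 14.9 and 19.0 in ARM and 43.1, 36.0 and 23.4 in control, and its spots varied by 11.03% to 23.3% (coefficient of variation) within an array. On ARM replicates 1, 2 and 3 it kept 4, 7 and 4 of its 8 spots after outlier flags, and with flagged spots kept the difference was -0.61 (limma adjusted p = 0.0892). With slide as a block it was -0.59 (limma adjusted p = 0.119). Of 20 other settings, 4 kept the call, 15 lost it with the same sign and 1 reversed the sign, with limma adjusted p from 0.0237 to 0.589. Slide as a block, slide 1 alone and leaving out ARM replicate 3 are the same fit, counted separately among the 15.

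miR-532-5p, the other arm of that hairpin, had ARM levels of 4.04, 3.03 and 3.99, beside control levels of 5.18, 5.07 and 4.22. The groups did not overlap, but control replicate 3 lay 0.18 above the highest ARM array and far from the other controls. They averaged 3.69 ± 0.57 and 4.82 ± 0.53 (SD, n = 3 each) and differed by -1.13 (SE 0.37, limma adjusted p = 0.0687). This was the largest difference of the 5, 2.19-fold with an interval of 1.21 to 3.98, and it did not pass. The brighter probe, detected on all 6 arrays, read 41.2, 33.0 and 39.9 in ARM and 115, 107 and 54.5 in control before scaling. The dimmer probe was detected on control replicate 1 alone.

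The log2 ratio of the 5p to the 3p signal of Mir532 was 1.09, 0.01 and 1.28 with ARM, beside 1.42, 1.56 and 0.75 without it. These ratios set different probes against each other, so only their change between arrays has a meaning. Each arm is averaged with a dimmer probe, detected on control replicate 1 alone for 5p and on no array for 3p. On ARM replicate 2, where the ratio was 0.01, the dimmer 5p probe read 1.62 before scaling, so that ratio includes signal near background. The groups overlapped, and the means differed by -0.45 (two-sided exact permutation test, p = 0.5). With 3 samples a group the smallest p this test can give is 0.1, so it could not pass 0.05 and does not bear on whether the arms respond alike.

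miR-500-3p, whose seed the cluster's miR-501-3p also carries, had ARM levels of 5.68, 6.31 and 5.77, beside control levels of 6.86, 6.53 and 6.57. ARM replicate 2 came closest to control, and the groups did not overlap in this mean of 2 probes. For the dimmer probe, also detected on all 6 arrays, they did, with 6.08 on ARM replicate 2 and 5.91 on control replicate 2. The group levels averaged 5.92 ± 0.34 and 6.66 ± 0.18 (SD, n = 3 each) and differed by -0.74 (SE 0.23, limma adjusted p = 0.0627). The control level was 1.67-fold higher, with an interval of 1.16 to 2.40. This miRNA had the most precise spots, with a median variation of 3.01% within an array for its brighter probe. That probe read 67.1, 83.1 and 71.6 in ARM and 208, 168 and 118 in control before scaling.

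miR-362-3p, which shares its seed with miR-329-3p of the imprinted Dlk1-Dio3 region, had ARM levels of 3.90, 3.42 and 3.82, beside control levels of 4.44, 4.54 and 3.93. Control replicate 3 and ARM replicate 1 lay only 0.03 apart, so the groups barely separated in this mean of 2 probes. They averaged 3.71 ± 0.26 and 4.30 ± 0.33 (SD, n = 3 each) and differed by -0.59 (SE 0.24, limma adjusted p = 0.108). It was detected on 2 of 3 ARM arrays and all 3 controls. Its dimmer probe was detected on 0 ARM arrays and 2 controls. For that probe the groups overlapped, with 3.29 on control replicate 3 and 3.33 and 3.46 on ARM replicates 1 and 3. The seed relative miR-329-3p was detected on all 6 arrays and differed by -0.41 (SE 0.21, limma adjusted p = 0.174).

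miR-188-5p, studied mostly in tumour cells and in bone marrow stromal cells, had ARM levels of 5.31, 4.88 and 5.42, beside control levels of 5.62, 6.28 and 4.97. The groups overlapped, since control replicate 3 lay below ARM replicates 1 and 3. They averaged 5.21 ± 0.28 and 5.63 ± 0.65 (SD, n = 3 each) and differed by -0.42 (SE 0.34, limma adjusted p = 0.347). The interval of the log2 difference ran from -1.22 to 0.38. Both of its probes were detected on every array, and the spots of the brighter probe varied by 2.00% to 12.1% within an array.

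**Figure D3:**
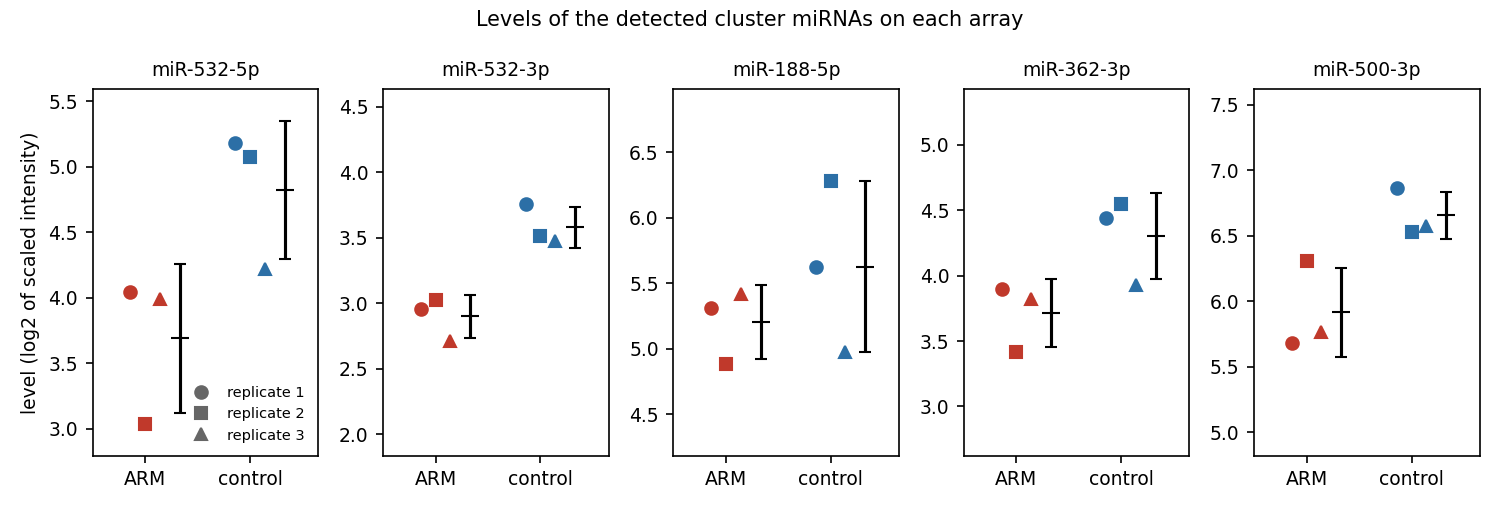
Level (log2 of scaled intensity) of the 5 cluster miRNAs that passed the detection rule, on each array. Circles, squares and triangles are replicates 1, 2 and 3 of ARM (red) and control (blue), and the black bars are the group mean ± SD. Each panel covers the same range of the log2 scale from its own centre. The groups overlap only for miR-188-5p.

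Among the 5 miRNAs that did not pass the rule, miR-362-5p was well above background in control alone. Its brightest probe read 11.3, 6.92 and 9.73 with ARM, beside 33.4, 26.9 and 14.2 without it, before scaling. It was well above background on no ARM array and on 2 of 3 controls. With each ARM reading raised to the lowest detected probe of its array where that was higher, control was 1.47-fold higher. Control replicate 3, also not well above background, was kept as read (14.2), so this is not a strict lower bound. miR-362-5p was not tested. The scanner software's own call per miRNA counted miR-362-5p as detected on 5 arrays. Its summed signal from that software was 75.2, 0.1 (the floor) and 17.6 with ARM, beside 44.0, 42.2 and 77.2 without it. On ARM replicate 1 that sum was above control replicates 1 and 2, unlike the brightest probe. The probes of miR-188-3p, miR-500-5p, miR-501-3p and miR-501-5p read between -5.20 and 4.49 on every array before scaling, that is, around the subtracted background. miR-511-5p, which carries the seed of miR-532-5p, was detected on no array. miR-3560, on the strand opposite Mir501, was detected on 1 ARM array alone and was not tested.

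Read as a list, the cluster had a median difference of -0.68, with members from -1.13 to -0.42, beside a median of 0.17 over all 230 miRNAs. All 3 ARM arrays lay below all 3 controls for 4 of the 5 members, and for 22.6% of all tested miRNAs. The same 4 had an unadjusted p below 0.05 in limma, as did 22.6% of all tested miRNAs in that direction. A difference below 0 was found for 5 of 5 members and for 40.4% of all tested miRNAs. The 5 share a locus, and 2 share a hairpin, so they are not separate observations of the condition. miR-532-3p met the rule with 3 control arrays and 1 ARM array, and a miRNA that meets it mainly through the control arrays is more likely to read lower in ARM.

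**Figure D4:**
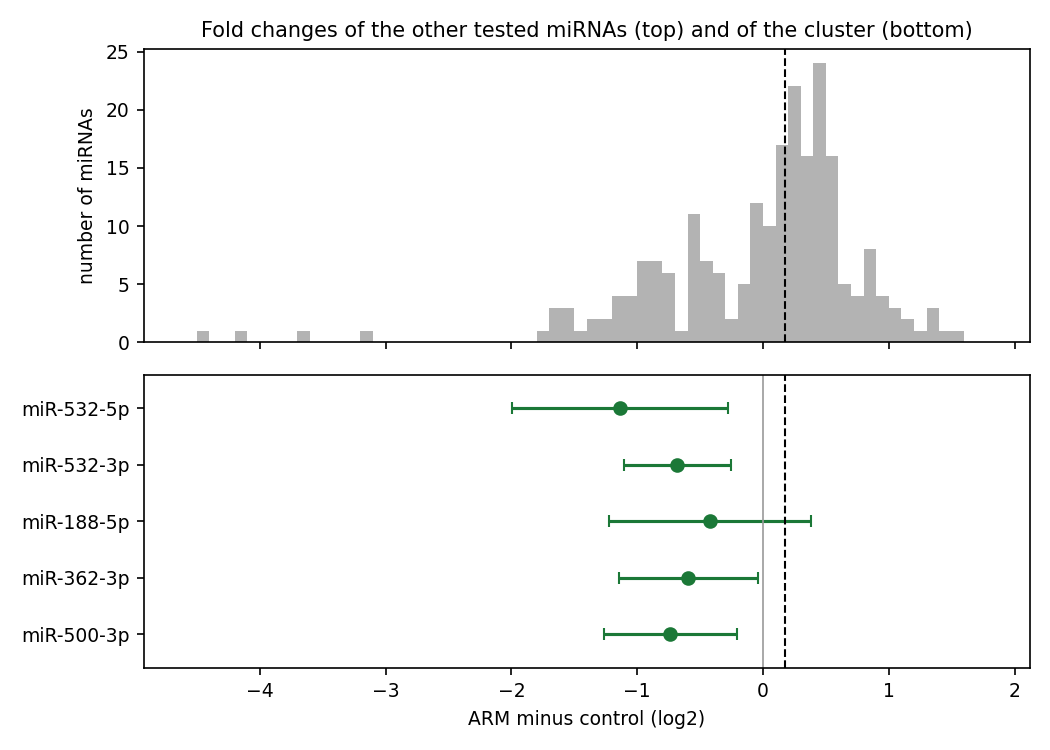
Top, numbers of the other 225 tested miRNAs by their difference between ARM and control (log2, bins of 0.1). Bottom, the same difference for the 5 cluster miRNAs, as points with 95% intervals from limma. The dashed line is the median of all tested miRNAs, 0.17, and the 5 points lie between -1.13 and -0.42.

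The mean level over the 5 members was 4.38, 4.13 and 4.34 with ARM, beside 5.17, 5.19 and 4.63 without it. Control replicate 3 was the lowest of the controls for miR-532-5p, miR-532-3p, miR-188-5p and miR-362-3p, and ARM replicate 2 the lowest of the ARM arrays for miR-532-5p, miR-188-5p and miR-362-3p. For miR-500-3p and miR-532-3p, in contrast, ARM replicate 2 was the highest ARM array. Leaving out control replicate 3 gave 3 calls in limma (miR-362-3p, miR-532-3p and miR-532-5p) and 92 among all 230. Leaving out any other single array gave 0 calls among the 5, with 2 or 3 of them at an unadjusted p below 0.05. Among all 230 the count was then 10 without ARM replicate 1, 6 without ARM replicate 2, and 0 without ARM replicate 3, control replicate 1 or control replicate 2 (62 to 78 with an unadjusted p below 0.05).

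The arrays lay on 2 slides, which were also scanned at 2 times, and ARM replicate 3 was alone on the second. Leaving out ARM replicate 3, keeping slide 1 alone and taking slide as a block are therefore the same fit. Within slide 1, which held 2 ARM and 3 control arrays, the median difference of the 5 was -0.65. There miR-532-5p differed by -1.28, miR-532-3p by -0.59, miR-500-3p by -0.66, miR-362-3p by -0.65 and miR-188-5p by -0.53. Limma called none of them within the slide (adjusted p 0.106 to 0.370, 3 with an unadjusted p below 0.05), nor any of the 230, of which 78 had an unadjusted p below 0.05.

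The choice of probes and of the intensity changed the size of the differences. With the brightest probe of each miRNA in place of the mean, limma called miR-500-3p (-0.81, adjusted p = 0.0270), miR-532-3p (-0.68, adjusted p = 0.0483) and miR-532-5p (-0.90, adjusted p = 0.0366). Calls among all 230 then numbered 45 (10 higher, 35 lower), against 31 as reported. With the total gene signal, a sum per miRNA made by the scanner software, no member was called, and miR-532-5p (0.34) and miR-362-3p (0.13) changed sign. That signal for miR-532-5p was 84.7, 132.96 and 93.6 with ARM, beside 70.6, 64.3 and 147 without it. It was highest on control replicate 3 and ARM replicate 2, where the brighter probe was lower than on control replicates 1 and 2. For miR-500-3p the total gene signal was 51.5, 77.4 and 58.8 in ARM and 164, 126.1 and 100.2 in control, in the same order as its brighter probe. With normexp background correction miR-532-3p (0.053) and miR-362-3p (0.014) were above 0 and the median was -0.088.

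**Figure D5:**
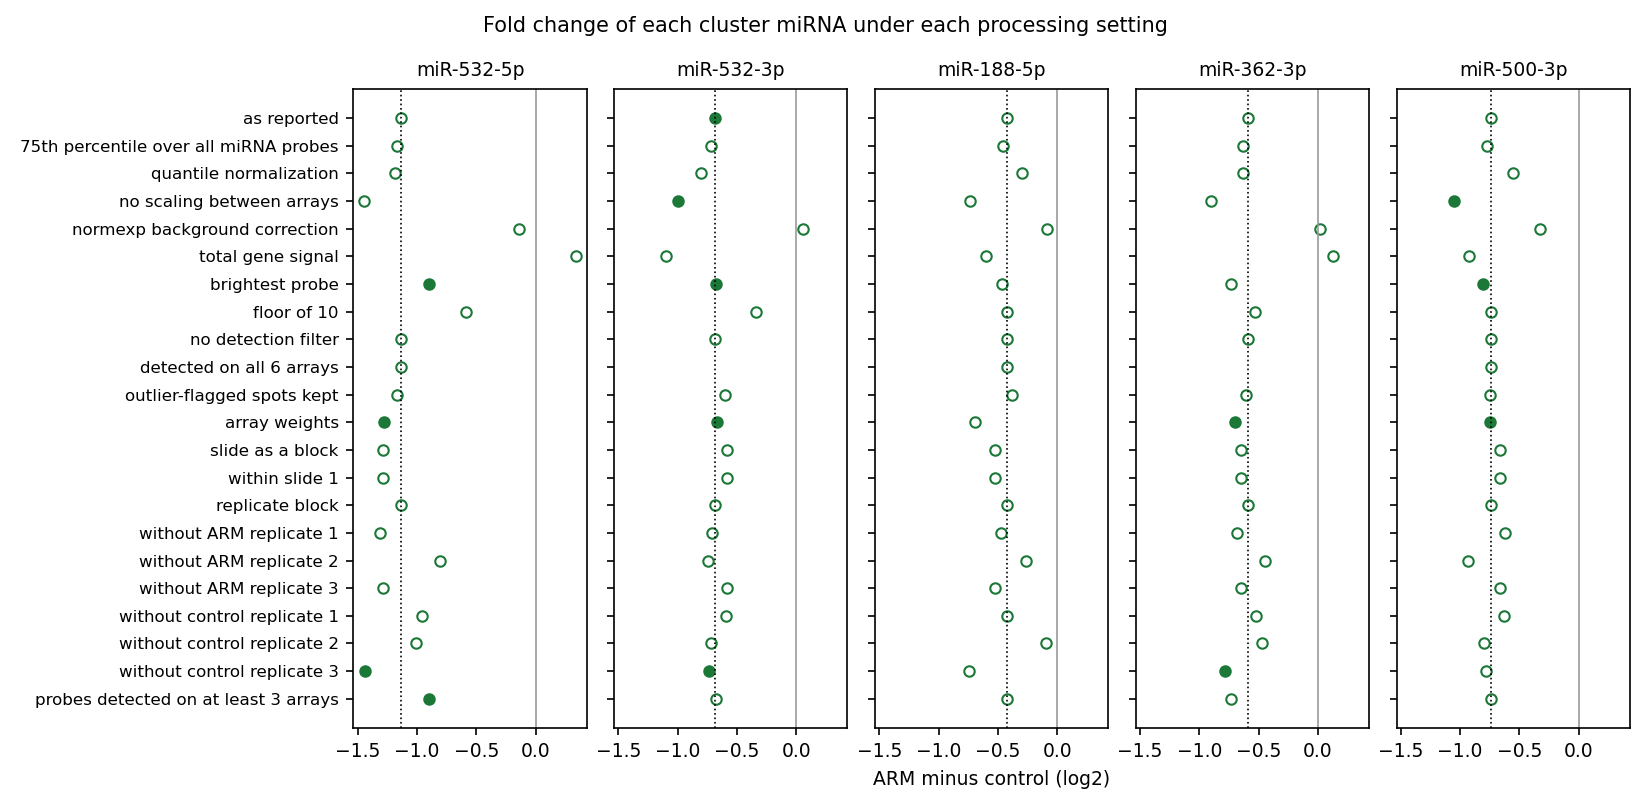
Difference between ARM and control (log2) of each of the 5 cluster miRNAs, as reported (dotted line) and under each other processing setting (rows). Filled circles passed the threshold of 0.05 after adjustment over all miRNAs in limma, open ones did not, and a missing circle means that the miRNA was not tested in that setting. Values above 0 are seen with the total gene signal or with normexp correction alone, for miR-532-5p, miR-532-3p and miR-362-3p.

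Profiles like that of the cluster were sought among the 225 tested miRNAs outside it. Likeness was the root-mean-square difference, over the 6 arrays, between a miRNA and the mean of the 5 members, each centred on its own mean. The 5 closest were miR-154-5p (0.07), miR-369-5p (0.08), miR-337-3p (0.10), miR-379-5p (0.10) and miR-409a-5p (0.11), against a median of 0.58. RefSeq places all 5 on chromosome 6, within 258 kb of each other, in the imprinted Dlk1-Dio3 region. miR-154-5p had ARM levels of 5.14, 4.90 and 5.20, beside control levels of 6.15, 6.06 and 5.50, and control replicate 3 was again the lowest control. Of the members themselves, miR-362-3p lay at 0.10 from the mean, closer than miR-409a-5p, and miR-532-3p, miR-188-5p, miR-500-3p and miR-532-5p at 0.21 to 0.35. Each member is part of that mean, which lowers its distance, so members and other miRNAs are not compared like for like. These profiles rest on 6 arrays that share their scaling.

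The other miRNA loci of the X chromosome gave a median near that of all tested miRNAs. Of 39 miRNAs from such loci on the array, 15 passed the detection rule, with a median difference of 0.07, and RefSeq places all 15 on X. That median joins 7 differences below 0 (-1.54 to -0.37), all of miR-322, miR-351, miR-450a, miR-503 and miR-542, and 8 above 0. In limma 4 of the 15 were called lower in ARM, beside 11.3% of all tested miRNAs, and 1 higher, beside 2.17%. The lower ones were miR-503-5p (-1.54, adjusted p = 0.0337), miR-322-3p (-1.26, adjusted p = 0.0385), miR-322-5p (-1.09, adjusted p = 0.0330) and miR-542-5p (-1.002, adjusted p = 0.0396), which RefSeq places together at another locus of the chromosome. The higher one was miR-221-3p, which represses the KIT receptor in human cells. It was detected on 3 ARM arrays and 0 control arrays. It thus met the rule through ARM alone, which makes a higher reading in ARM more likely. The medians of the cluster and of these loci were not tested against each other.

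Markers of other cell types moved with the groups. In the striated muscle list, 4 of 5 tested miRNAs were lower in ARM and 0 higher, with a summed scaled intensity of 169 to 350 in ARM and 1015 to 4232 in control. The passenger arms miR-1-5p, miR-133b-5p and miR-206-5p were detected on no array. Both tested miRNAs of the erythroid list were lower (74.3 to 115 in ARM, 223.3 to 399 in control), as was miR-122-5p of hepatocytes (2.61 to 25.0 in ARM, 113 to 226 in control). In the intestinal epithelium list 0 of 10 passed, all 10 differences were positive, and the sums were 1932 to 3116 in ARM and 605 to 1740 in control. The striated muscle sum was also lowest on control replicate 3 among the controls and on ARM replicate 2 among the ARM arrays. The part of these cell types in the differences of the cluster was not tested.

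The remaining lists moved less. The sums were 994 to 1055 in ARM and 598 to 1041 in control for smooth muscle, 63.1 to 77.4 and 46.9 to 60.6 for stratified epithelium, and 2661 to 3217 and 3225 to 4222 for mesenchyme. They were 77.0 to 101 and 81.1 to 102 for leukocytes, 234 to 262 and 231 to 295 for endothelium, and 43.9 to 73.1 and 36.5 to 63.9 for the 1 tested neural miRNA. No member of these 6 lists passed the test.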

How the data were processed

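The intensity of each spot was deposited as Agilent Feature Extraction 10.7.1.1 gave it, per the file headers: less a background and a spatial trend, and not scaled between arrays. Outlier-flagged spots among the 12128 miRNA spots were dropped before averaging by probe (1806 probes). Scaling divided every array by the 75th percentile of the 300 probes that all 6 arrays detected, relative to the geometric mean of the percentiles. A floor of 1 was set, log2 was taken, and the probes of a miRNA were averaged. Values at the floor have no order. Groups and replicate numbers come from the sample titles. Other scalings, backgrounds, probe rules, filters, blocks and each array left out were tried as alternatives. The comparison used limma 3.58.1 (lmFit and eBayes) in R 4.3.3 on all 230 tested miRNAs, and the code was tested on simulated data. Intervals are at 95%. Mature and hairpin sequences, coordinates and gene spans are RefSeq's, build GRCr8; names of miRNAs are those of the array design. The members and the marker and X-linked lists were chosen with earlier results of these data known. All tested members, the 5 closest profiles, seed relatives and X-linked miRNAs past the test were named by rule; miR-3560 was added for its position after its values were seen.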

Additional observations from a re-analysis of the deposited data

How the results depend on the processing

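The call of miR-532-3p was near the threshold. Among the 5 members limma gave 0 calls with the 75th percentile over all probes (4 with an unadjusted p below 0.05), quantile normalization (3), normexp background correction (1), the total gene signal (2), a floor of 10 (4), no detection filter (2), detection required on all 6 arrays (2 of 3 tested), outlier-flagged spots kept (4), and slide as a block or within slide 1 (3 in both). It gave 2 calls without scaling, 3 with the brightest probe and 4 with array weights. Averaging only probes detected on at least 3 arrays, chosen after seeing the data, gave 1, of miR-532-5p in place of miR-532-3p. Leaving out each array gave 0 to 3 calls among the 5 and 0 to 92 among all 230, against 31. Among all tested miRNAs normexp gave 16 calls, the brightest probe 45 and array weights 87. The count was 0 with no detection filter (134 with an unadjusted p below 0.05) and with slide as a block or within slide 1 (78 in both). The calls split into 5 higher and 26 lower as reported, 1 and 30 without scaling, 10 and 28 with quantile normalization, 11 and 27 with a floor of 10, and 37 and 50 with array weights. The replicate block gave 0 calls among the 5 (3 with an unadjusted p below 0.05) and 0 among all (73). The labels do not say whether the numbers pair the samples. Deviations of same-numbered arrays from their group means correlated at -0.07, -0.28 and -0.21 across miRNAs. Deviations from a mean of 3 arrays sum to 0, so this check cannot exclude pairing.

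The median difference of the 5 was -0.99 without scaling, where that of all tested miRNAs moved from 0.17 to -0.13, and the distance between them was -0.86 in both. That distance was -0.28 with normexp and -0.50 with the total gene signal. The median difference of the 5 itself was -0.088 with normexp. Over the arrays left out, this median ranged from -0.78 to -0.59. Normexp added an offset of 50, above every unscaled signal of miR-532-3p. The effect of that offset was not tested. Signs turned positive for miR-362-3p with normexp (0.014) and the total gene signal (0.13), for miR-532-3p with normexp (0.053) and for miR-532-5p with the total gene signal (0.34). The cause of the changed signs with the total gene signal was not tested. Signals close to background are a limit for the members with a probe not detected in ARM. A floor of 10 moved miR-532-5p from -1.13 to -0.58, miR-532-3p from -0.68 to -0.34 and miR-362-3p from -0.59 to -0.53. Readings below a floor become equal, so differences of dim probes shrink by construction in that setting.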
